A study of Mus musculus with 6 samples.

Results

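The genes described here encode the mitochondrial respiratory chain and the ATP synthase of mouse macrophages. They were chosen by symbol, as genes whose name starts with Nduf, Sdh followed by a, b, c or d, Uqcr, Cox4 to Cox8 or Atp5. The rule found 94 genes among the 18194 with a probe set of 1 symbol. A floor, which kept a gene if on any array it reached the median of all probe sets there, left 90 of them among 13587 genes. These 90 comprised 42 genes of complex I, 8 of complex II, 8 of complex III, 15 of complex IV and 17 of the ATP synthase. By its letters the rule also took assembly factors, 8 named Ndufaf and 4 named Sdhaf, which help build complexes I and II but are not part of them.

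The respiratory chain passes electrons from NADH (through complex I) and succinate (through complex II, also an enzyme of the citric acid cycle) to coenzyme Q, then through complex III and cytochrome c to complex IV, which reduces oxygen. Complexes I, III and IV pump protons across the inner mitochondrial membrane, and the ATP synthase uses the returning protons to make ATP. Macrophages that meet bacterial lipopolysaccharide (LPS) are known to turn towards glycolysis, and succinate oxidation and reactive oxygen from the chain are known to take part in their inflammatory output.

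The cells were peritoneal macrophages, drawn into the abdominal cavity by an injection of the irritant thioglycollate. Akirin2 is a nuclear protein that bridges NF-kB complexes and chromatin remodelling at inflammatory genes. Akirin2 KO cells came from LysM-Cre+;Akirin2fl/fl mice, in which Cre from the lysozyme locus deletes the floxed gene in myeloid cells, and the comparison cells came from mice labelled wild-type, all on a C57BL/6 x 129Sv background. In each genotype cells were left unstimulated (0 h) or given LPS at 100 ng/ml for 2 or 4 h, with 1 Affymetrix array per condition and 6 in all. The sources used here give no number, age or sex of mice, and do not say whether wild-type mice carried Cre.

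Values below are on a log2 scale, so a difference of 1 is 2-fold, and the small number of arrays limits the precision. Akirin2 itself was at 5.18, 5.54 and 4.91 in KO cells at 0, 2 and 4 h, against 7.43, 7.47 and 7.33 in wild-type cells, and fell by 2.20 on the log2 scale (SE 0.14) in KO cells. All 8 macrophage markers were above the floor, with a summed linear signal of 12660 to 14512 in KO cells and 14201 to 15106 in wild-type cells. Of markers of other cells on the array, those above the floor were 3 of 5 neutrophil, 3 of 4 B cell, 2 of 4 T and NK cell, 3 of 5 mast cell, 1 of 3 eosinophil, 0 of 2 erythroid and 8 of 8 mesothelial and fibroblast genes. Each list but the neutrophil and the mesothelial and fibroblast ones summed to 59.9 linear units or less on every array. Pairwise correlations between arrays ran from 0.96 to 0.99.

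Respiratory chain genes were steady relative to the rest of the transcriptome. The highest and lowest of the 6 arrays differed by a median of 0.35 log2 units over the 90 genes (quartiles 0.22 and 0.50), against 0.57 over all 13587 genes. Among genes with a mean log2 value of 6 or more, where background matters less, the median range was 0.31 for 67 chain genes and 0.61 for 4088 genes. A range of 1 or more, that is 2-fold, was reached by 0 of those 67 and by 22.4% of the 4088. The 1 gene of the 90 to reach it was Ndufaf7, a weakly expressed complex I assembly factor. Some abundant subunits barely moved. Cox5b, a nuclear-encoded subunit of complex IV, was at 11.19, 11.16 and 11.27 in KO cells at 0, 2 and 4 h and at 11.16, 11.12 and 11.14 in wild-type cells. Atp5a1, the alpha subunit of the catalytic head of the ATP synthase, ran from 10.93 to 10.95 in KO cells and from 10.78 to 10.88 in wild-type cells.

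**Figure D1:**
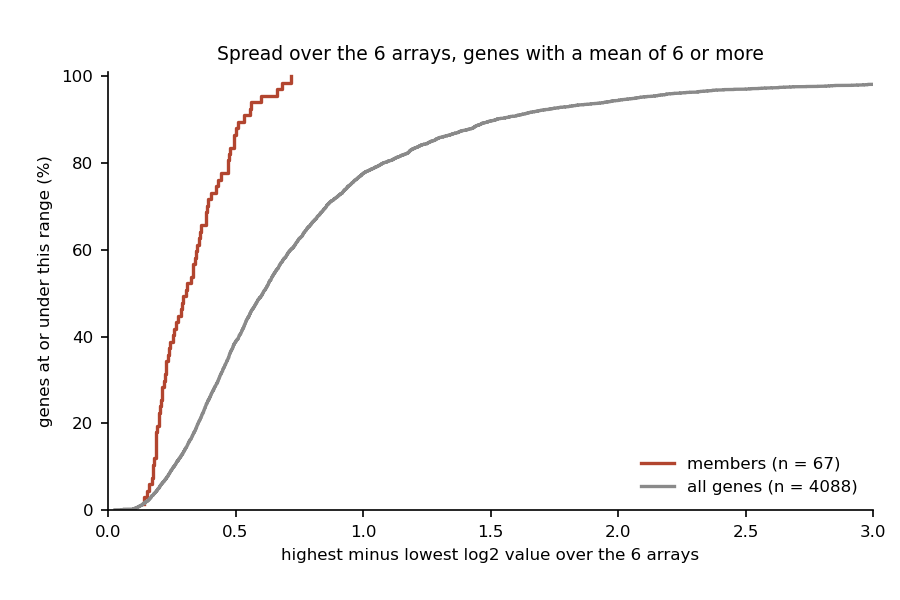
Cumulative share of genes (y axis, percent) by the difference between the highest and the lowest log2 value over the 6 arrays (x axis), for respiratory chain and ATP synthase genes (red) and for all genes (grey) with a mean of 6 or more; the x axis ends at 3. The curve of the 67 chain genes lies for the most part left of that of the 4088 genes, with medians of 0.31 and 0.61.

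Promoters are shown for the pair of members that passed the test below and for those that hold the site of nuclear respiratory factor 1 (NRF1), a transcription factor known to bind promoters of many respiratory chain genes. Promoters are those of RefSeq for GRCm38.p6, from 250 bases before to 50 bases after each gene's start, and 76 of the 90 genes matched at least 1. For 5 genes with 2 listed promoters (Atp5c1, Atp5d, Atp5j, Ndufa5 and Ndufa7), and for any other gene with several, the first listed was used. The letters searched on both strands were GCGCATGCG, the core of its site, printed in capitals (10 letters where both strands matched). The 2 called members have these promoters, Ndufaf4 at chr4:24897833-24898132 and Ndufaf7 at chr17:78936885-78937184, both on the plus strand, and that of Ndufaf7 holds no match.
Ndufaf4: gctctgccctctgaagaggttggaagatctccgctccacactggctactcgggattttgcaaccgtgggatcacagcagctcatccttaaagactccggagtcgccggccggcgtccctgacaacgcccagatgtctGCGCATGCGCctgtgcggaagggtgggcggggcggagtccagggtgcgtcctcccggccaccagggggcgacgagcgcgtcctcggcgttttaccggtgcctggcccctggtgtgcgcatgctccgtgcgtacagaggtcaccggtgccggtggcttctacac
Ndufaf7: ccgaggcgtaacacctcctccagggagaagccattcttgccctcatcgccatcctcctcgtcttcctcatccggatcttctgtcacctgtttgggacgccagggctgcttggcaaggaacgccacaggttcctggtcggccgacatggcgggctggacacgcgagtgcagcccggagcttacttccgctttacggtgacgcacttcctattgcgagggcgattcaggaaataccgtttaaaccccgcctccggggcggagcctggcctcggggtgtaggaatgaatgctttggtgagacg

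The NRF1 letters stood in 9 of the 76 promoters (11.8%), against 3.47% of the 10842 promoters of genes above the floor and 1.81% of all 27025. These members belong to complex I (the accessory subunit Ndufa8 and the assembly factors Ndufaf4 and Ndufaf5), complex III (the core subunit Uqcrc1 and Uqcr11), complex IV (Cox6a1) and the membrane part of the ATP synthase (Atp5g2, Atp5k and Atp5l). Windows around the match are shown so that the sites can be compared. They lie on the minus strand at chr2:36049329-36049357 for Ndufa8, chr10:80406808-80406836 for Uqcr11, chr5:115349101-115349130 for Cox6a1, chr15:102671070-102671099 for Atp5g2, chr5:108434430-108434459 for Atp5k and chr9:44920965-44920992 for Atp5l. On the plus strand they lie at chr4:24897960-24897989 for Ndufaf4, chr2:140170652-140170681 for Ndufaf5 and chr9:108936668-108936697 for Uqcrc1.
Ndufa8: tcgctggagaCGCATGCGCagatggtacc
Ndufaf4: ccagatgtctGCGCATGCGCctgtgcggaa
Ndufaf5: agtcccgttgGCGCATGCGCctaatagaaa
Uqcrc1: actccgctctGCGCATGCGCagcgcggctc
Uqcr11: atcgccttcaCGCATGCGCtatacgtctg
Cox6a1: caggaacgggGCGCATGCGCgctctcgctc
Atp5g2: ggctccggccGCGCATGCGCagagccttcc
Atp5k: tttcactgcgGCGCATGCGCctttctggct
Atp5l: aaccaataaCGCATGCGCatttccccca

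Letters bound by YY1, AAGATGGCG, stood in 6 of the 76 promoters (7.89%, against 2.96% of the 10842), those of Atp5j2, Ndufa9, Ndufaf8, Ndufc1, Ndufs4 and Ndufs7. The ETS letters CCGGAAGT, which the GABP factor binds, stood in 5 (6.58%, against 7.58%). A shortened NF-kB form, GGGNNTTTC, stood in 5 (6.58%, against 4.34%): Ndufs3, Ndufv3, Sdhb, Uqcr10 and Uqcrfs1. Of the 9 members with the NRF1 letters, 1 was called with LPS (Ndufaf4), and the fitted 4 h differences of the others ran from -0.12 for Atp5g2 to 0.19 for Uqcrc1. A match is a description of the sequence, not a binding site shown in these cells.

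The question of whether LPS moved these genes was asked with limma, in a fit of time and genotype to all 13587 genes with Benjamini-Hochberg adjustment at 0.05. With 1 array per condition, a p-value for LPS says how alike a difference was in the 2 genotypes. It says nothing of mouse-to-mouse spread. At 4 h, 2 of the 90 were called, 1 higher and 1 lower (2.22%), against 15.4% of all genes tested, of which 7.76% were higher and 7.61% lower. An unadjusted p under 0.05 was found for 10 of the 90 (11.1%, against 28.2% of all genes). Both encode complex I assembly factors, and they went opposite ways. At 2 h 0 of 90 were called, against 6.85% of all genes, and 4 of the 90 had an unadjusted p under 0.05 (4.44%, against 20.3% of all genes). Between 4 and 2 h the count was again 0, against 2.67%, with 2 at an unadjusted p under 0.05 (2.22%, against 13%). The median 4 h difference over the 90 genes was -0.04, beside -0.03 over all genes. The summed neutrophil markers also differed with time, at 340, 413 and 552 linear units in KO cells and 319, 467 and 626 in wild-type cells at 0, 2 and 4 h. Of the 3 above the floor, S100a8 was called higher at 2 and 4 h (1.26 at 4 h, SE 0.16, limma adjusted p = 0.00116), and their part in the LPS differences was not tested.

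Ndufaf4, an assembly factor of complex I that works with Ndufaf3, was at 6.33, 6.62 and 6.95 in KO cells at 0, 2 and 4 h and at 6.41, 6.52 and 7.00 in wild-type cells. Both 4 h arrays were above both 2 h arrays, and those above both 0 h arrays. It rose 1.52-fold at 4 h (log2 difference 0.60, SE 0.15, limma adjusted p = 0.0267). Leaving out any array but that of wild-type cells at 0 h moved the adjusted p to between 0.0528 and 0.132, and its weaker probe set gave 0.30 (adjusted p = 0.386).

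Ndufaf7, a mitochondrial methyltransferase needed to assemble complex I, was at 4.78, 4.99 and 4.41 in KO cells and at 5.33, 4.79 and 3.90 in wild-type cells at 0, 2 and 4 h. Both 4 h arrays were the lowest of their genotype, and the 4 h difference was -0.37 in KO cells and -1.44 in wild-type cells. It fell by 0.90 on the log2 scale at 4 h (SE 0.24, limma adjusted p = 0.0361). The call rested on the wild-type arrays: without the one at 0 h the difference was -0.45 (adjusted p = 0.16), and without the one at 4 h -0.56 (adjusted p = 0.23). Its only probe set is of a type that can bind several transcripts.

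**Figure D2:**
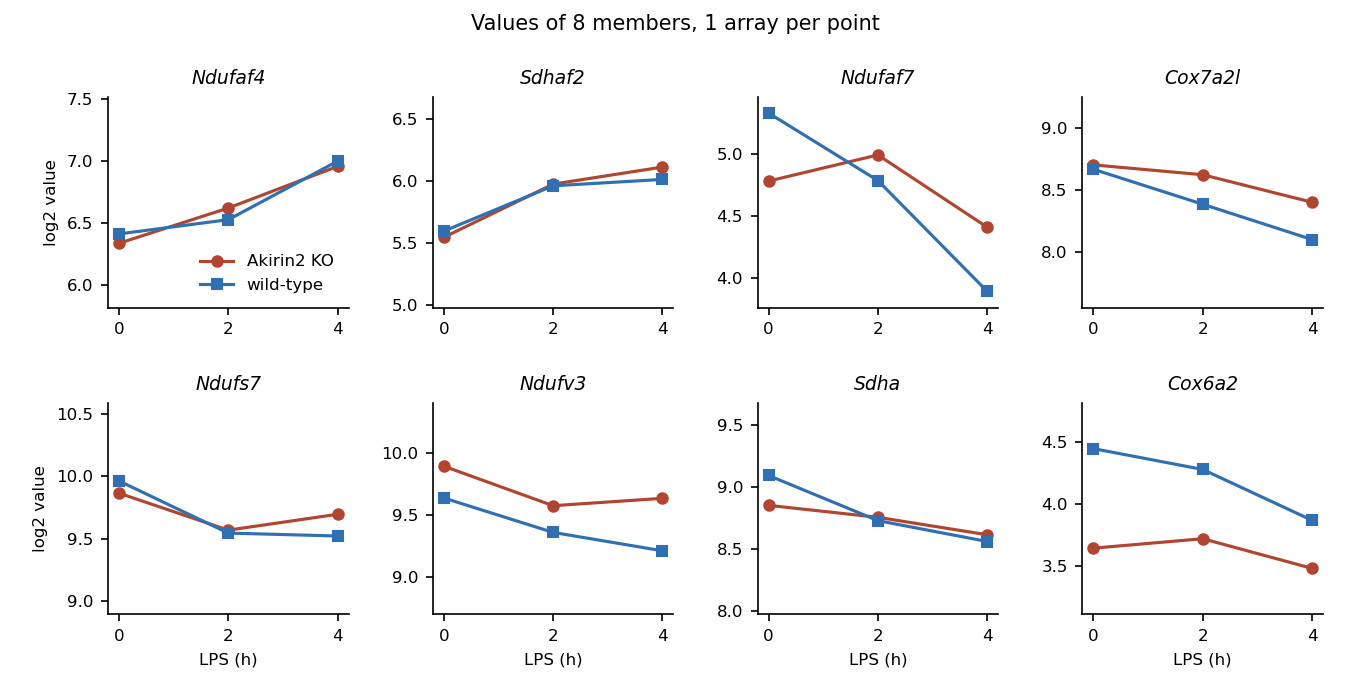
Log2 values (y axes, each spanning the same number of units) by hours of LPS (x axes) for 8 members, with Akirin2 KO cells as red circles and wild-type cells as blue squares, 1 array per point. Ndufaf4 and Sdhaf2 are higher at 4 h than at 0 h in both genotypes, Ndufaf7 is lower, and Cox6a2 is lower in KO cells at each time.

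No subunit of complex I was called with LPS. The 6 nuclear-encoded core subunits measured belong to a group that carries the flavin and the iron-sulphur clusters. On the probe sets used, 5 were lower than at 0 h in all 4 LPS arrays: Ndufs3, Ndufs7, Ndufs8, Ndufv1 and Ndufv2. Over the 90 genes 20 did so (22.2%), against 24.2% of all genes, and 11 were higher in all 4 (12.2%, against 19.1%). None of the 5 was called, and their fitted 4 h differences ran from -0.31 to -0.13. Ndufs7, Ndufs8, Ndufv1 and Ndufv2 each had a weaker probe set in which not every LPS array was below 0 h. Over the weaker sets 4 h differences ran from -0.34 to 0.13 for Ndufs8 and from -0.10 to 0.02 for Ndufv2. Those of Ndufv1 ran from -0.20 to -0.17, and that of Ndufs7 was -0.08. Ndufs7, which holds the last iron-sulphur cluster before coenzyme Q, was at 9.87, 9.57 and 9.70 in KO cells and at 9.96, 9.54 and 9.52 in wild-type cells at 0, 2 and 4 h, so that every LPS array was below both 0 h arrays (4 h difference -0.31, SE 0.15, limma adjusted p = 0.234). Ndufv1, which binds NADH and the flavin, was at 9.03, 8.78 and 8.83 in KO cells and at 8.83, 8.53 and 8.56 in wild-type cells. Here the genotypes differed about as much as the times, and the KO value at 2 h lay under the wild-type one at 0 h. Ndufs1, the largest core subunit, was the exception, at 6.33, 6.41 and 6.41 in KO cells and at 6.57, 6.32 and 6.60 in wild-type cells.

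Accessory subunits of complex I, which surround the core, were mixed. Of 28, 6 were lower in all 4 LPS arrays and 2 were higher, and their median 4 h difference was -0.06. Ndufb11, a membrane subunit, was at 10.44, 10.07 and 10.16 in KO cells and at 10.49, 10.13 and 9.93 in wild-type cells, with no overlap between LPS and unstimulated arrays (4 h difference -0.42, SE 0.16, limma adjusted p = 0.116). Ndufv3 was at 9.89, 9.57 and 9.63 in KO cells and at 9.64, 9.36 and 9.21 in wild-type cells (-0.34 at 4 h, adjusted p = 0.177). Ndufb6 went the other way, at 9.12, 9.38 and 9.68 in KO cells against 9.29, 9.30 and 9.43 in wild-type cells (0.35 at 4 h, adjusted p = 0.202). Ndufb10 had the lowest 2 h difference of the 90, -0.54 (SE 0.20, limma adjusted p = 0.161). Its value was 6.00 in unstimulated wild-type cells and between 5.20 and 5.56 on the other 5 arrays. That 1 array widened the difference, but KO values also fell, from 5.54 at 0 h to 5.25 at 2 h.

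Complex II has 4 subunits, and on the probe sets used all 4 had a fitted 4 h difference below 0, with 0 called. Sdha, the flavoprotein that oxidises succinate, was at 8.85, 8.75 and 8.61 in KO cells and at 9.09, 8.73 and 8.56 in wild-type cells at 0, 2 and 4 h. In each genotype the 3 times stood in descending order, and the unstimulated arrays were the highest (4 h difference -0.38, SE 0.15, limma adjusted p = 0.146). Other Sdha probe sets disagreed, from -0.26 to 0.22. Sdhb, the iron-sulphur subunit, stayed between 7.20 and 7.23 in KO cells and was at 7.47, 7.05 and 6.97 in wild-type cells. Sdhc, a membrane anchor, was at 5.29, 5.57 and 5.43 in KO cells and at 5.94, 5.72 and 5.58 in wild-type cells, and every KO array was below every wild-type array. Sdhd, the other anchor, showed the reverse order, at 8.24 to 8.40 in KO cells against 8.15 to 8.24 in wild-type cells. On second, weaker probe sets the genotypes of both anchors overlapped. Sdhc was there at 3.90 to 4.38 in KO cells and 4.18 to 4.51 in wild-type cells, and Sdhd at 5.09 to 5.69 and 5.42 to 5.48. The 4 h differences of these sets were 0.10 for Sdhc and 0.28 for Sdhd.

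The assembly factors of complex II did not move as a group. Sdhaf2, which attaches the flavin to Sdha, was at 5.55, 5.98 and 6.11 in KO cells and at 5.60, 5.96 and 6.01 in wild-type cells at 0, 2 and 4 h, and all LPS arrays were above both unstimulated arrays. The 4 h difference was 0.49 (SE 0.15), short of the threshold (limma adjusted p = 0.0576). It passed with a higher floor (adjusted p = 0.0328) or with arrays centred on their median gene (adjusted p = 0.049). A second, weaker probe set of Sdhaf2 gave 0.29 (limma adjusted p = 0.331). Sdhaf4 was at 4.21, 4.21 and 4.01 in KO cells and at 4.22, 4.04 and 3.60 in wild-type cells (-0.41 at 4 h, adjusted p = 0.133). Sdhaf1 and Sdhaf3 had differences of -0.09 and -0.12.

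None of the 8 complex III genes or the 10 subunits of complex IV was called. Fitted 4 h differences of complex III ran from -0.14 for Uqcrh, the hinge protein, to 0.19 for Uqcrc1. Those of complex IV subunits ran from -0.13 for Cox4i1 to 0.21 for Ndufa4 and Cox5a. Cox7a2l, which joins complexes III and IV into supercomplexes, stood apart from them, at 8.70, 8.63 and 8.40 in KO cells and at 8.67, 8.39 and 8.10 in wild-type cells at 0, 2 and 4 h. Its 4 h difference was -0.43 (SE 0.15, limma adjusted p = 0.0979), all 3 of its probe sets gave between -0.48 and -0.36, and a repeated quantile normalization gave -0.49 (adjusted p = 0.0494).

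Among the 17 ATP synthase genes, 9 had a fitted 4 h difference above 0 and 8 below. Atp5b, the catalytic beta subunit, was highest, at 7.57, 7.90 and 7.94 in KO cells and at 7.76, 7.90 and 8.05 in wild-type cells (0.33, SE 0.15, limma adjusted p = 0.194). Of its partners in the catalytic head, Atp5c1, Atp5d and Atp5e were lower than at 0 h in all 4 LPS arrays on the probe sets used. Their 4 h differences were -0.23, -0.08 and -0.09. A weaker Atp5d set was at 6.19, 5.98 and 6.21 in KO cells and at 6.26, 6.33 and 6.27 in wild-type cells (0.02). Atp5a1 had a 4 h difference of -0.04, and its other sets gave 0.08 and 0.02. The 3 genes of the c ring, whose proteins are identical once their targeting sequences are removed, also differed: Atp5g1 had a 4 h difference of 0.31, Atp5g3 of 0.11 and Atp5g2 of -0.12, and 0 were called.

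**Figure D3:**
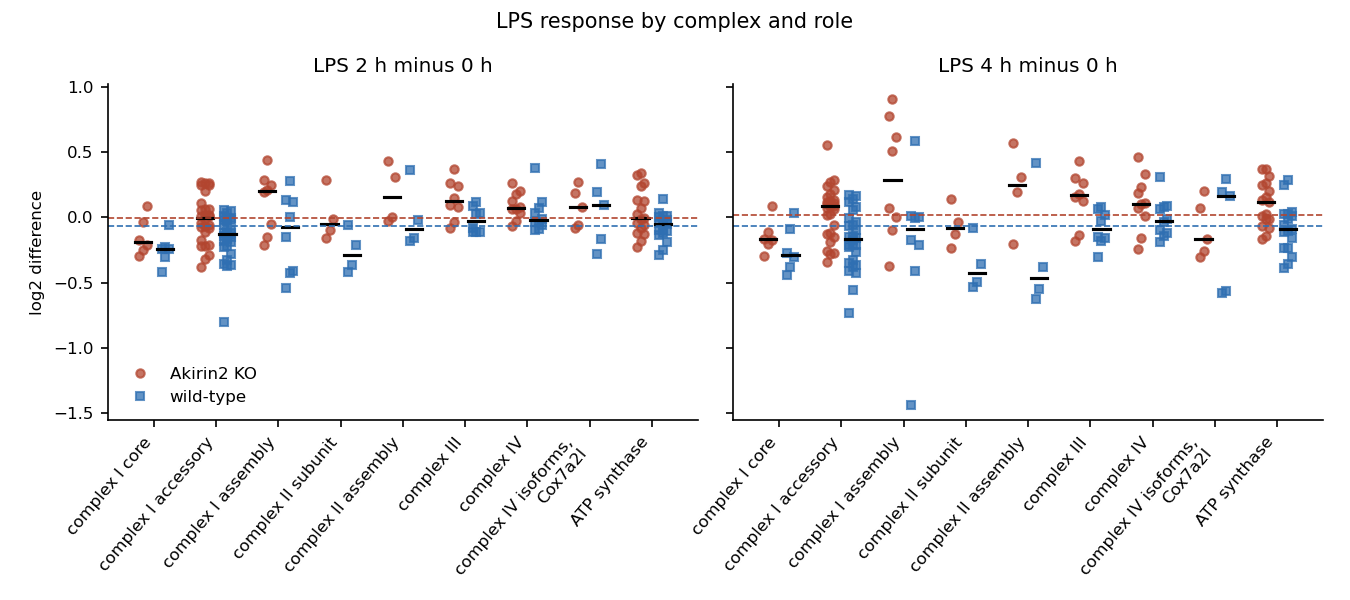
Log2 difference from the unstimulated array of the same genotype (y axis) at 2 h (left panel) and 4 h (right panel) of LPS, by complex and role, with Akirin2 KO cells as red circles left of wild-type cells as blue squares. Black bars are medians over the genes shown, and dashed lines are the medians over all 13587 genes in each genotype. Complex I core subunits lie below these lines but for 1 gene in each group, and complex II subunits in wild-type cells at 4 h lie between -0.53 and -0.09.

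Whether loss of Akirin2 altered these genes was asked in the same fit. As each condition had 1 array, a p-value here says how stable a difference was from time to time and nothing of mouse-to-mouse spread. 0 of the 90 were called, against 1.95% of all genes, and 2 had an unadjusted p under 0.05 (2.22%, against 15.4%). The median KO difference was -0.01 over the 90 and -0.01 over all genes. At no time did a member differ 2-fold between genotypes, while 1.93% of all genes did at 0 h, 0.949% at 2 h and 1.45% at 4 h.

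Cox6a2, the heart and muscle isoform of complex IV subunit 6a, came nearest. It was at 3.64, 3.72 and 3.48 in KO cells and at 4.44, 4.28 and 3.87 in wild-type cells at 0, 2 and 4 h, all near background, and every KO array was below every wild-type array. The difference was -0.58 (SE 0.13, limma adjusted p = 0.0717), and its second probe set gave -0.24. Cox6a1, the ubiquitous isoform, was at 10.44 to 10.57 in KO cells and 10.48 to 10.67 in wild-type cells. The other tissue isoforms, Cox7a1 of muscle and Cox7b2 and Cox8c of testis, were at 3.80 or less on every array, and Cox4i2, Cox6b2 and Cox8b did not reach the floor. The isoforms well above the floor were Cox4i1, Cox6a1, Cox6b1, Cox7a2 and Cox8a, each at 6.16 or more.

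Genotypes did not overlap over the 3 times for 18 genes. In 13 of the 90 (14.4%, against 6.2% of all genes) every KO value was below every wild-type value, and in 5 (5.56%, against 6.09%) every one was above. Those below included Ndufa10, Ndufa12 and Ndufc2 of complex I, Sdhc, Uqcrq of complex III, Cox6c, Cox8a and Ndufa4 of complex IV, and Atp5g2 and Atp5k. Those above were Ndufa8, Sdhd, Cox5b, Atp5l and Atp5a1. Other probe sets of Atp5a1, Sdhd and Cox5b did not all agree. A weaker set of Atp5a1 had every KO value below every wild-type value (7.93 to 8.03 against 8.08 to 8.22), while the remaining set gave a difference of 0.13. The second set of Sdhd overlapped, with a difference of -0.08. The other Cox5b sets gave differences from -0.15 to 0.07. The counts of genes without overlap also depended on the times compared. With only 2 and 4 h, 17 of 90 were below, against 17.1% of all genes, and 21 were above, against 21.8%. With only 0 and 2 h, 33 were below, against 19.5%, and 10 above, against 14.7%. Ndufa4, now known as a subunit of complex IV, was at 5.09, 5.27 and 5.55 in KO cells and at 5.63, 5.57 and 5.60 in wild-type cells, a difference that narrowed from 0 to 4 h. Ndufc2 kept its difference on the probe set used, at 10.64, 10.46 and 10.49 in KO cells against 10.78, 10.76 and 10.73 in wild-type cells (-0.23, SE 0.12, limma adjusted p = 0.409). On its other probe sets above the floor the genotypes drew together by 4 h. KO cells were there at 8.06, 8.15 and 8.24 against 8.37, 8.34 and 8.30, and at 5.88, 6.24 and 6.39 against 6.29, 6.29 and 6.42. For Ndufa12 a second probe set gave a wider gap, 6.98 to 7.08 in KO cells and 7.56 to 7.64 in wild-type cells, and another near background gave a difference of 0.01.

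**Figure D4:**
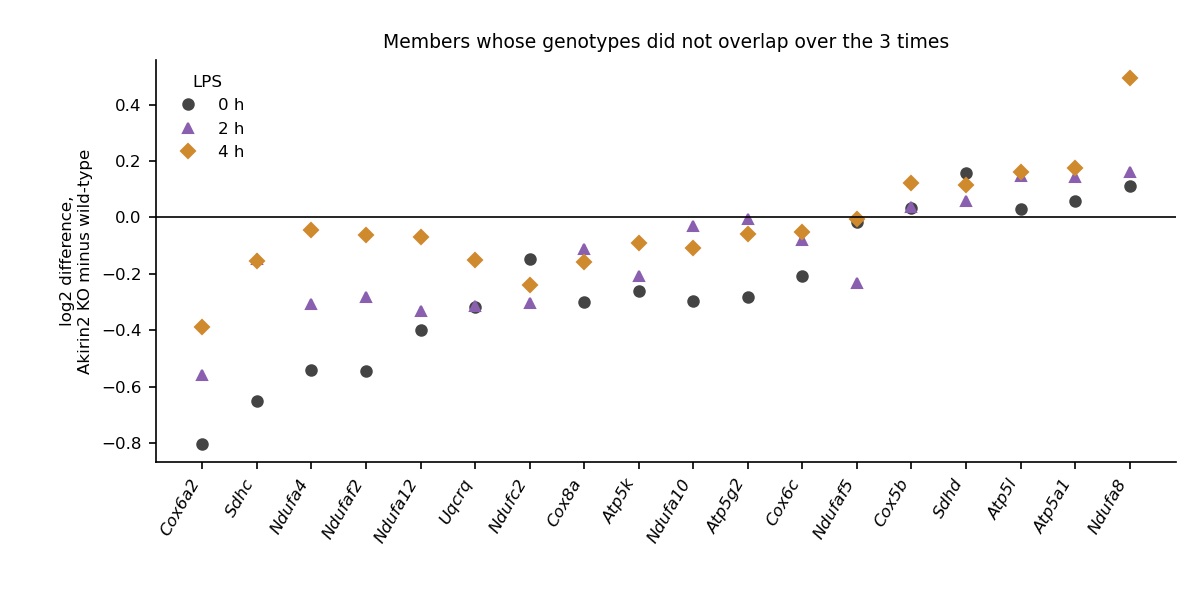
Log2 difference of Akirin2 KO minus wild-type cells (y axis) at 0 h (grey circles), 2 h (purple triangles) and 4 h (orange diamonds) of LPS for the 18 members whose genotypes did not overlap. Of the 13 below 0, Cox6a2 is lowest, and the 0 h difference is the widest for all but Ndufc2 and Ndufaf5.

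A sign of RNA quality from Actb, but not that from Gapdh, differed with genotype beside these values, as did markers of other cells. The log2 signal of Actb probes at the 3 prime end minus those at the 5 prime end is a sign of RNA quality. It was 4.64, 4.50 and 4.36 in KO cells at 0, 2 and 4 h, and 4.22, 4.16 and 4.09 in wild-type cells. In each genotype it therefore also fell with the time of LPS. For Gapdh the genotypes overlapped, at 4.34 to 4.52 in KO cells and 4.33 to 4.42 in wild-type cells. The 8 mesothelial and fibroblast markers, all above the floor, summed to 444 to 526 linear units in KO cells and 720 to 781 in wild-type cells, and 1 of them, Col1a2, was called lower. Of the 8 macrophage markers 1 was called lower, Fcgr1, an IgG receptor gene (-0.89, SE 0.12, limma adjusted p = 0.0115). The part of these markers and of RNA quality in the genotype differences was not tested, nor was that of RNA quality in the LPS differences. In these bulk samples fewer cells of a type and less RNA per cell cannot be told apart.

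The last question was whether LPS acted differently on these genes without Akirin2. In unstimulated cells the median KO difference over the 90 was -0.15, against -0.07 over all genes, and 56 lay below that median. At 4 h it was 0.07, against 0.03. The median 4 h response was 0.08 in KO cells and -0.13 in wild-type cells, with all-gene medians of 0.02 and -0.06, and the response was larger in KO cells by more than the all-gene median in 62 of 90 genes. As these single-array values share the unstimulated arrays, they are a description. The limma interaction of genotype and stimulation called 0 of 90, against 0.0294% of all genes, and 6 of the 90 had an unadjusted p under 0.05 (6.67%, against 12.8%).

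On the probe sets used, the widest interactions belonged to weakly expressed complex I assembly factors. Other probe sets of subunits gave wider ones, 1.57 for Uqcr10, 1.27 for Ndufab1 and 1.01 for Cox5b, against 0.61, 0.39 and 0.05 on those used. None of these was called. Ndufaf1, which takes part in building the membrane arm, was at 3.09, 3.53 and 3.87 in KO cells and at 3.92, 3.50 and 3.71 in wild-type cells at 0, 2 and 4 h, and the unstimulated KO array was the lowest of the 6. Its interaction was 0.93 (SE 0.25, limma adjusted p = 0.164). That of Ndufaf7 was 0.91 (SE 0.26, adjusted p = 0.188). Ndufaf3, the partner of Ndufaf4, was at 3.60, 3.80 and 4.50 in KO cells and at 3.92, 3.77 and 3.74 in wild-type cells, so that the KO array at 4 h alone was above 4 (interaction 0.71, adjusted p = 0.357). At the other end, Cox7c was at 4.76, 4.84 and 4.52 in KO cells and at 4.23, 4.61 and 4.54 in wild-type cells (-0.42).

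**Figure D5:**
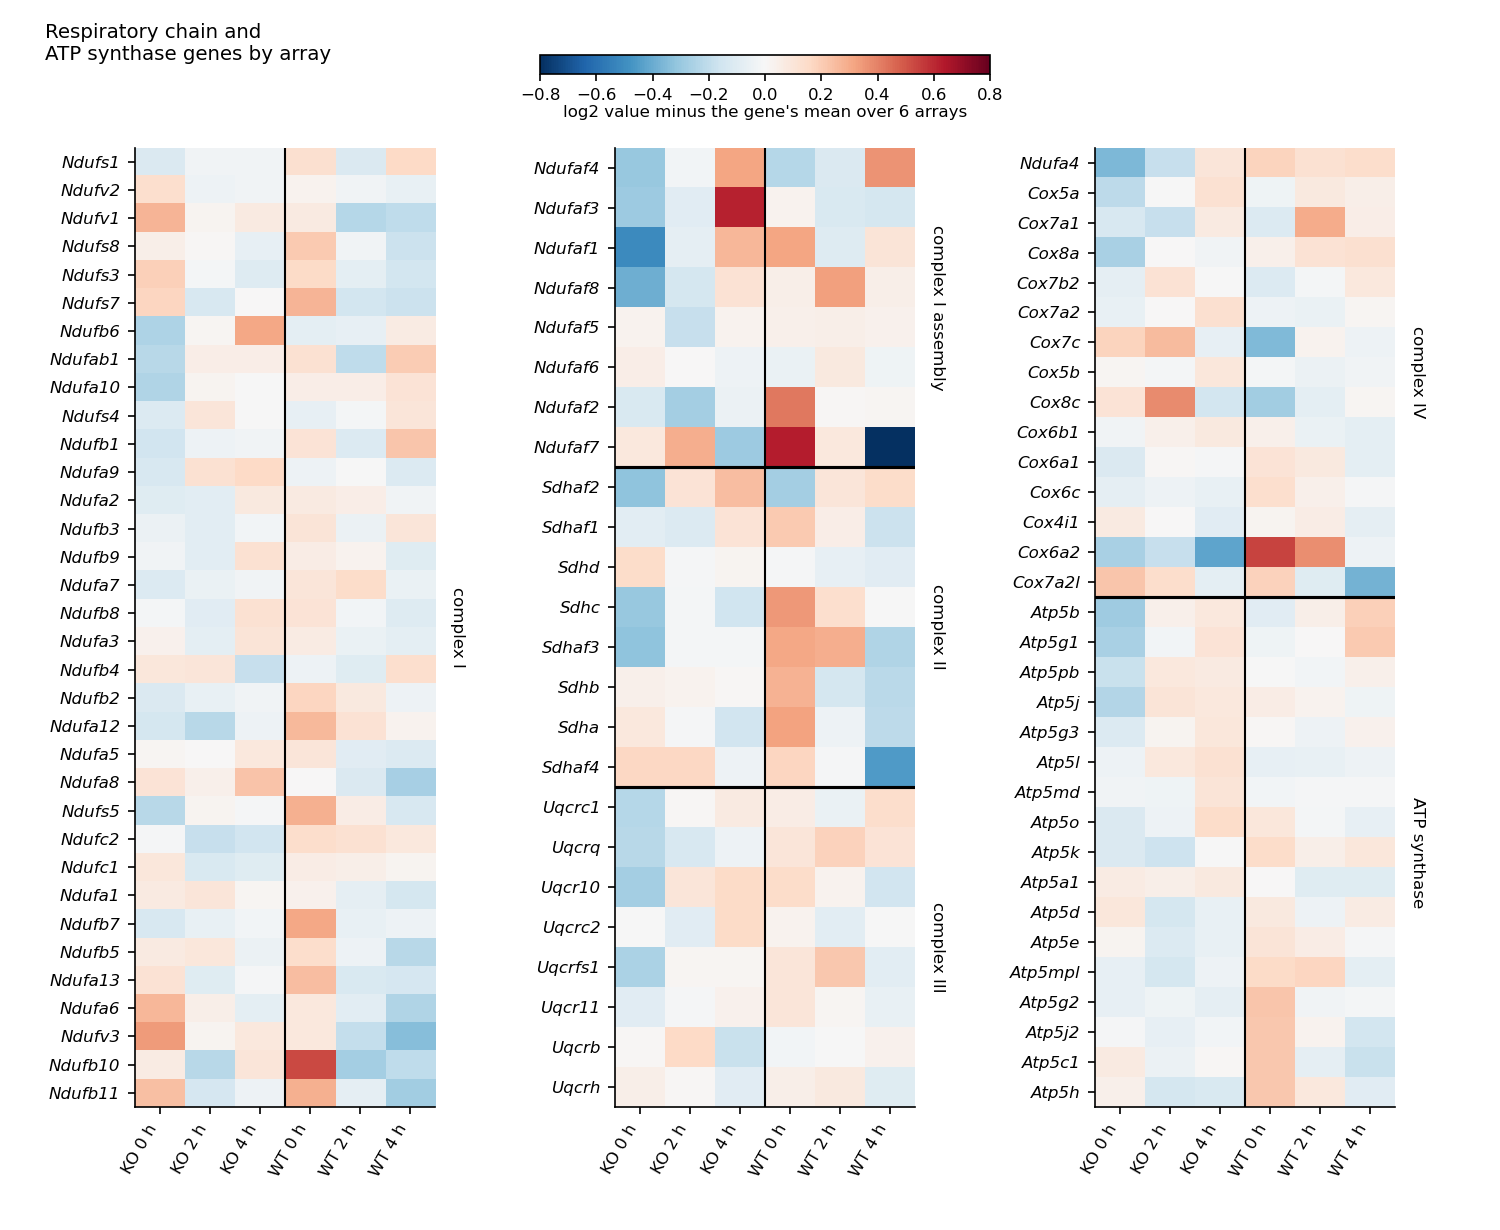
Log2 value of each of the 90 members minus its own mean over the 6 arrays (colour, blue low and red high), with Akirin2 KO arrays left of wild-type arrays and genes grouped by complex. Most cells are pale, Ndufaf7 has the strongest colours, and unstimulated KO cells are blue where unstimulated wild-type cells are red for Sdhc, Sdhaf3, Ndufs5 and Ndufaf1.

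Other mitochondrial genes, listed with earlier results of these data known, gave the setting. Of all genes tested, 7.76% were called higher and 7.61% lower at 4 h. The counts of genes called higher and lower were 1 and 1 of 17 citric acid cycle and pyruvate dehydrogenase genes, 2 and 0 of 19 complex IV assembly factors, 0 and 2 of 15 other assembly factors, 1 and 0 of 19 electron carriers and coenzyme Q enzymes, 1 and 0 of 7 metabolite carriers and porins, 3 and 0 of 19 import genes, 2 and 1 of 19 biogenesis regulators, and 3 and 1 of 75 mitochondrial ribosomal proteins. Dld, the dehydrogenase subunit shared by the pyruvate and 2-oxoglutarate complexes, rose by 1.11 (SE 0.20, limma adjusted p = 0.00652), and Gpd2, which passes electrons from cytosolic glycerol 3-phosphate to coenzyme Q, by 1.16 (SE 0.19, adjusted p = 0.0047). Timm23, the channel of the inner-membrane import machinery, rose by 0.86. Acad9, an assembly factor of complex I outside the rule, fell by 1.04 (SE 0.22, limma adjusted p = 0.0146): it was at 5.30, 4.39 and 3.78 in KO cells and at 4.49, 4.21 and 3.93 in wild-type cells at 0, 2 and 4 h. The coactivator gene Ppargc1a fell by 0.69 and Gabpa, a subunit of GABP, rose by 0.63.

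With genotype, 1 gene of these lists was called. Tfb1m, which modifies the mitochondrial ribosomal RNA, was at 4.34, 4.27 and 4.76 in KO cells and at 5.01, 4.91 and 5.35 in wild-type cells, with no overlap, and fell by 0.63 in KO cells (SE 0.12, limma adjusted p = 0.0373). Of the 13 subunits encoded by mitochondrial DNA, 1 was measured: ND5 of complex I was at 11.57, 11.42 and 10.99 in KO cells and at 11.41, 11.40 and 11.36 in wild-type cells, and was not called. Cycs, the cytochrome c gene, had a 4 h difference of 0.44 and was not called (limma adjusted p = 0.0792).

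At the edge of the floor, Cox7b2, Ndufb4, Ndufb1 and Ndufaf6 exceeded an array's median by 0.00058, 0.06, 0.12 and 0.19 at most. Cox6b2, Cox4i2, Ndufa4l2 and Cox8b came at most to -0.0029, -0.09, -0.10 and -0.30 from it. For Ndufb4 this low level holds for the probe set used only. Left-out probe sets that carry its symbol with Ndufb4b and Ndufb4c were well above the floor. At 4 h the stronger was at 8.33 in KO cells and 8.18 in wild-type cells, and the weaker at 6.15 and 6.01. Their signal cannot be assigned to Ndufb4 alone.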

How the data were processed

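The authors deposited 1 log2 value per probe set for each of 6 Affymetrix arrays (3 times in each of 2 genotypes). These come from RMA, per the submitters' processing notes, which normalizes arrays by quantiles, so a shift of all genes together would not show. RMA's version is not given in the sources used here. Names are those of the platform annotation, and 10 probe sets with several symbols were left out. Each gene was taken as its probe set with the highest mean. Of the 90 used, 24 end in _s_at or _x_at, types that can bind several transcripts.

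Tests used limma 3.58.1 in R 4.3.3 (lmFit, eBayes) on all 13587 genes above the floor: time plus genotype (2 residual degrees of freedom), and a fit with the interaction of genotype and stimulation (1). Scripts were tested on simulated data. Members and gene lists were chosen with earlier results of these data known. Genes are named where called, among the 5 widest differences each way, in complex II or an isoform family, at the floor's edge, or where probe sets disagree; further genes named to illustrate a group were chosen after their values were seen. Alternatives changed the floor, probe sets, scaling, variance model, threshold and arrays included.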

Additional observations from a re-analysis of the deposited data

How the results depend on the processing

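Replicates could not be paired, because each condition has 1 array and the labels carry no replicate numbers. The fit of time plus genotype compared genotypes within each time and times within each genotype. Of 124 alternative values of counts and medians, 100 stayed within the limits set for them, and of 520 for single members, 491 kept their direction and side of the threshold, 9 lost a call, 15 gained one and 5 changed sign. For genotype, 0 members were called in the main fit and without any 1 array, 1 at an adjusted p of 0.1 (Cox6a2) and 2 with a trended, robust variance model (Ndufc2 and Ndufv3). For LPS at 2 h the count of 0 became 4 with that model, and 0 to 1 when each array was left out. For LPS at 4 h the count of 2 became 4 at an adjusted p of 0.1, 1 with the mean of all probe sets, 1 without probe sets ending in _x_at or _s_at, 8 with the trended, robust model, and 1 to 2 when each array was left out. With that model 20.9% of all genes were called at 4 h and 6.5% for genotype. The other alternative counts of calls are given without a share of all genes, so they cannot be set against it. Between 4 and 2 h the range without 1 array was 0 to 1. The 2 h median of members minus that of all genes was 0.0102, -0.0273 after quantile normalization again, and -0.0409 to 0.0304 without 1 array. The number of members with all KO values above all wild-type values, examined after seeing the data, was 5 (6.09% of all genes did so), and became 2 with the mean of probe sets (5.86%), 3 without _x_at and _s_at probe sets (5.84%), 3 after quantile normalization again (6.59%), 8 with arrays centred (6.67%), 21 without the 0 h arrays (21.8%) and 10 without the 4 h arrays (14.7%). The number below was 13 (6.2%) and became 33 without the 4 h arrays (19.5%). Signs changed for Sdha at 4 h with another probe set (0.22), Ndufaf3 at 4 h without the KO array at 4 h (-0.0859; its values without 1 array ran to 0.818), Ndufaf8 at 2 h with another probe set (-0.0403), and the genotype difference of Ndufa12 without _x_at and _s_at probe sets and with another probe set (0.00815 in both). The cause was not tested. Values near an array's median, such as those of Cox6a2 and most Ndufaf genes, lie close to background, which limits them.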
